A study of Mus musculus with 70 samples.

Results

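Neurogranin and 7 further genes that tie calcium signals to calmodulin were followed across all 10 groups of the series. They are Nrgn, Pcp4, Camk2a, Camk2b, Camk2d, Camk4, Camk1g and Camkk2, chosen by name and matched to their Ensembl identifiers, 8 of the 38293 genes counted. All 8 were detected in every library and passed the filter on low counts in both tissues. RNA was sequenced from the striatum and the cerebral cortex of mice, with 7 libraries for each condition in each tissue, 70 together.

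Each tissue had 5 conditions. MMI mice were C57BL/6J wild-type males (labelled WT-MMI and WT-SH) made hypothyroid through the drinking water of their dams. That water held 0.02% 1-methyl-2-mercapto-imidazol (methimazole), which blocks hormone synthesis, and 1% KClO4, which keeps iodide out of the thyroid, and was given between embryonic day 9 and postnatal day 21. Mct8Dio2 KO mice were a double-knockout line named for its deleted genes, of which Dio2 encodes the enzyme that converts T4 to the active hormone T3 within the brain. Both of these groups were set against untreated wild types, labelled WT. Mct8Slco1c1 KO mice were the other double-knockout line, in which Slco1c1 encodes a T4 transporter of the blood-brain barrier and of astrocytes. Its controls were wild types labelled WT (Mct8Slco1c1 ko), called WTa as in the sample titles. Hypothyroid and knockout mice were 21 to 23 days old. The sources used here give neither the age of WT and WTa mice, nor the sex and strain of the other groups, nor how the knockout alleles were made. The labels do not say whether each library came from its own animal, so p-values measure the spread between libraries.

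Calmodulin is the main intracellular calcium sensor of neurons, and the supply of free calmodulin is itself regulated. Neurogranin and Pcp4 are small neuronal proteins whose IQ motif binds calmodulin. Neurogranin holds calcium-free calmodulin near the postsynaptic membrane and releases it when calcium rises or when protein kinase C phosphorylates it. Pcp4, also called PEP-19, alters how fast calmodulin binds and releases calcium. Calcium-loaded calmodulin switches on the kinase CaMKII, built from subunits such as those of Camk2a, Camk2b and Camk2d. It also switches on a cascade in which Camkk2 phosphorylates and activates the kinases of Camk1g and Camk4. Nrgn has long been known, from work in rat and other species, as a gene that responds to thyroid hormone in the forebrain.

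Because Nrgn, Pcp4 and Camkk2 were lower in all 3 models and Camk1g was not, the sequences before their start sites are shown side by side. Of the 8 genes, 6 matched a RefSeq promoter of build GRCm38.p6. Windows held 250 bases before the RefSeq start, and only bases lying before the GENCODE start as well are printed. For Nrgn these are chr9:37552905-37552995 (minus strand), for Pcp4 chr16:96467356-96467605 (plus), for Camkk2 chr5:122779411-122779660 (minus) and for Camk1g chr1:193370299-193370532 (minus). Capitals mark TGACCT, which is the reverse complement of the thyroid hormone response half-site AGGTCA, in Pcp4, and CCGCCC, which is the reverse complement of the GC box GGGCGG, in Camkk2.
Nrgn: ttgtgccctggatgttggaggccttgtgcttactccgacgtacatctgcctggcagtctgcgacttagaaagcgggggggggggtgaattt
Pcp4: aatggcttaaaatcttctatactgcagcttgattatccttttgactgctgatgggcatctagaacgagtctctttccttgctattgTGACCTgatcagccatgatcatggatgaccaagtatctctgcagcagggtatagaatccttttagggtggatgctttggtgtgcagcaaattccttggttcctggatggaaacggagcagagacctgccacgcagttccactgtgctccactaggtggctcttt
Camkk2: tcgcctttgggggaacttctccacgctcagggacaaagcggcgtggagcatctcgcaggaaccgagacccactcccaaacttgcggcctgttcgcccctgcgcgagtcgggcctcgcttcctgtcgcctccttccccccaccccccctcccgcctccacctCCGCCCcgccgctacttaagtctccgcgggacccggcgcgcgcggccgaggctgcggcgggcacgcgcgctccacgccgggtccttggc
Camk1g: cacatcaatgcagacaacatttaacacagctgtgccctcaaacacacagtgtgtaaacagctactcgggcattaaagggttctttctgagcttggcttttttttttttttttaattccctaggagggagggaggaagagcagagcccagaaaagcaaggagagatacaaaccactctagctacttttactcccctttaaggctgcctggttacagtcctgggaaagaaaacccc

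The half-site of Pcp4 begins at position -164 from the start, where -1 is the last base before it. Searched on both strands, AGGTCA was absent from the 250-base windows of Nrgn, Camkk2 and Camk1g, and 14.0% of 32851 mouse promoters of that length hold it. Camkk2 has its GC box at position -89, and the Nrgn window has one at position -43, in the part not printed, while 32.7% of promoters hold that motif. TATAAA (12.4% of promoters), the cAMP response half-site TGACG (17.8%) and its full site TGACGTCA (1.55%) were found in none of these 4 windows, nor was direct repeat 4, a pair of AGGTCA half-sites spaced by 4 bases (0.015% of promoters). TGACG lies within TGACGTCA, and AGGTCA within the repeat, so those searches overlap.

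The genes lie on 7 mouse chromosomes of build GRCm38, as annotated in GENCODE M21. Nrgn occupies chr9:37544492-37552904 on the minus strand and Pcp4 chr16:96467606-96525793 on the plus strand. Camk2a spans chr18:60925618-60988152, Camk2b chr11:5969644-6066362, Camk2d chr3:126596302-126846326 and Camk4 chr18:32934931-33191228. Camk1g spans chr1:193346346-193370298 and Camkk2 chr5:122731170-122779409. Exons of Camk4 overlap those of 2310026I22Rik on the opposite strand. The reads carry no strand, so reads within the shared bases cannot be told apart between these genes.

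Depth ranged from 8983668 to 19464492 counts in genes per striatum library and from 7802957 to 22485839 per cortex library. Over 371 genes that differ at least 4-fold between the tissues, each library was placed on a scale from cortex at 0 to striatum at 1. The library labelled cortex Mct8Slco1c1 KO 7 lay at 0.93 and the one labelled striatum Mct8Slco1c1 KO 7 at -0.07, so both lie with the other tissue. The library labelled cortex Mct8Slco1c1 KO 1 had 39.68% non-unique alignments, where the other cortex libraries had 27.81% to 30.48%. These 3 libraries were left out of the values below unless stated, which leaves 6 striatum and 5 cortex libraries of Mct8Slco1c1 KO. For the 8 genes, it is stated where fitting all 70 ends a call or moves a called value by over 1.5 times. Calls of other genes below, among them pathway and marker genes, were not checked in this way. Dio2 averaged 5.09 ± 0.98 CPM (read counts scaled to library size) in Mct8Dio2 KO striatum and 109.5 ± 15.6 CPM in WT striatum (SD, n = 7 each). Slco1c1 averaged 45.5 ± 3.5 CPM in Mct8Slco1c1 KO striatum (n = 6) and 84.6 ± 4.5 CPM in WTa striatum (n = 7), a fall by 0.89 on the log2 scale that left transcript counts in place. Summed markers of medium spiny neurons ran from 5443 to 12400 CPM in striatum and from 455.3 to 1143 CPM in cortex, and those of cortical excitatory neurons from 59.3 to 541.8 CPM in striatum and from 1780 to 2692 CPM in cortex.

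A gene is said to be called where the edgeR quasi-likelihood test gave a Benjamini-Hochberg adjusted p under 0.05 over all genes of the fit. Across hypothyroid striatum all 8 genes were called, 2 higher and 6 lower, where 19.0% of 16325 genes were called higher and 19.7% lower. In hypothyroid cortex 1 was higher and 6 were lower, where 19.9% of 16415 genes were called higher and 20.0% lower. In Mct8Dio2 KO striatum 2 were higher and 5 lower, against backgrounds of 10.5% and 11.1%, and in Mct8Dio2 KO cortex 2 were higher and 4 lower, against 11.1% and 11.8%. In Mct8Slco1c1 KO striatum none was higher and 3 were lower, against 12.1% and 13.0%, and in Mct8Slco1c1 KO cortex 1 was higher and 4 were lower, against 10.1% and 11.6%. The 3 genes lower in every one of these 6 comparisons were Nrgn, Pcp4 and Camkk2. How many of all genes were called alike across comparisons was not counted, and MMI and Mct8Dio2 KO share the WT controls. The median log2 change over the 8 genes was -0.34 in hypothyroid striatum, where the median of all genes was 0.01.

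**Figure D1:**
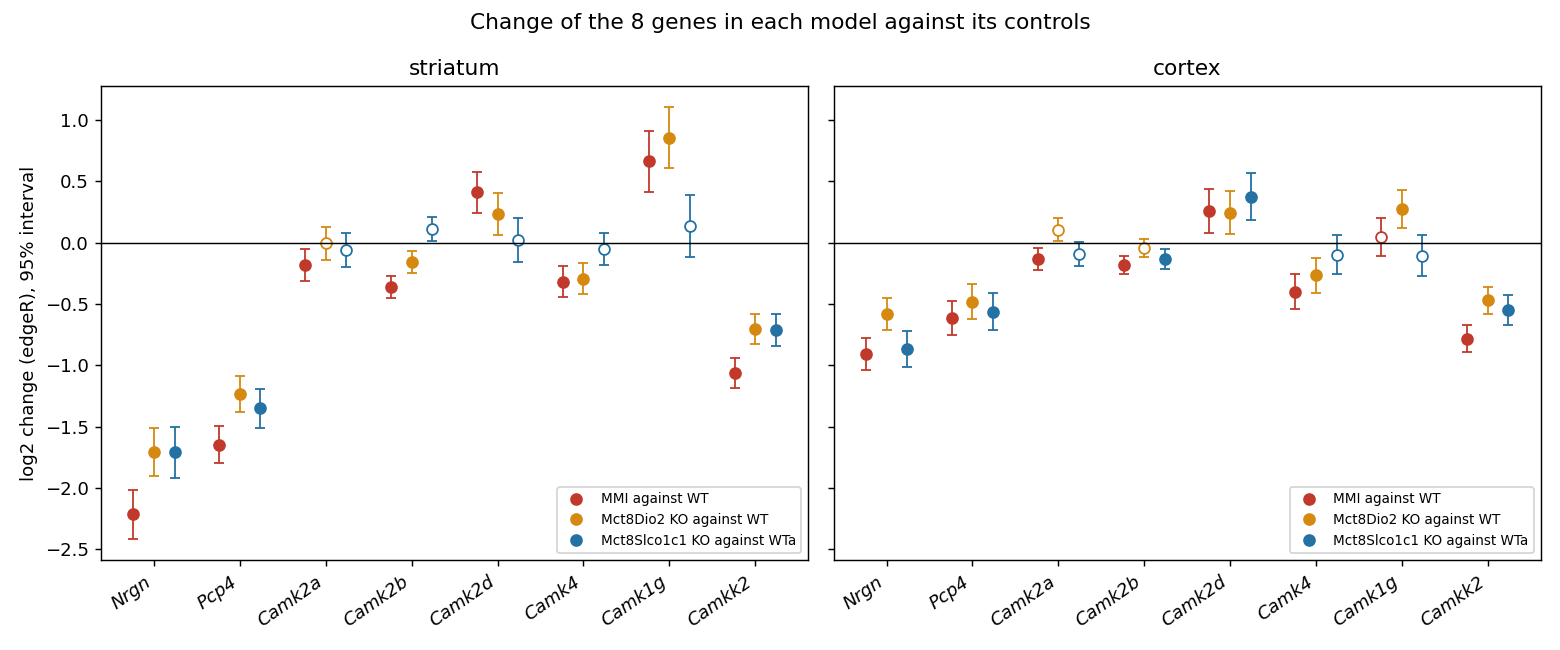
Log2 change of each gene in MMI against WT, Mct8Dio2 KO against WT and Mct8Slco1c1 KO against WTa, in striatum (left) and cortex (right). Points are edgeR estimates, bars are 95% intervals, filled points were called and open ones were not. Nrgn in hypothyroid striatum lies lowest at -2.21 and Camk1g in Mct8Dio2 KO striatum highest at 0.86.

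Neurogranin showed the largest change of the 8 genes in hypothyroid striatum. Its level ran from 225.1 through a median of 249.0 to 350.1 CPM in the 7 MMI libraries, against 1063, 1178 and 1491 CPM in the 7 WT libraries. The groups did not overlap, and the MMI mean of 267.3 ± 42.5 CPM was 4.67-fold below the WT mean of 1247 ± 172 CPM. The log2 change was -2.21 (SE 0.10, adjusted p = 1.40e-18).

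Mct8Dio2 KO striatum held Nrgn at 300.3 to 467.5 CPM with a median of 369.2 CPM, again below every WT library. Its mean of 380.1 ± 64.4 CPM gave a log2 change of -1.71 (SE 0.10, adjusted p = 1.96e-15). In Mct8Slco1c1 KO striatum Nrgn ran from 305.9 through 355.8 to 408.5 CPM in 6 libraries, against 1051, 1155 and 1336 CPM in the 7 WTa libraries. Here too the groups were apart, with a log2 change of -1.71 (SE 0.11, adjusted p = 1.03e-14). This change was -1.30 (adjusted p = 1.40e-05) with all 70 libraries, including the one at 1162 CPM that lies with cortex.

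In cortex the same gene fell by less. It ran from 850.6 through 943.1 to 1141 CPM in MMI libraries, against 1636, 1862 and 2016 CPM in WT libraries, with no overlap and a log2 change of -0.91 (SE 0.07, adjusted p = 1.08e-13). Mct8Dio2 KO cortex had 954.6 to 1323 CPM with a median of 1294 CPM, also below every WT library, and a log2 change of -0.58 (SE 0.07, adjusted p = 1.38e-08). The 5 Mct8Slco1c1 KO cortex libraries had 1089, 996.5, 1005, 956.3 and 1090 CPM, against 1699, 1915 and 2057 CPM as the lowest, median and highest of WTa. That change was -0.87 (SE 0.07, adjusted p = 3.11e-11), and it was -0.82 (adjusted p = 2.21e-03) with all 70 libraries.

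Pcp4, the other small calmodulin binder, was also lower in all 3 models in striatum. MMI libraries held 56.2 to 79.5 CPM with a median of 70.04 CPM, against 180.9, 210.3 and 248.7 CPM in WT libraries. Every MMI library lay below every WT library, and the log2 change was -1.65 (SE 0.08, adjusted p = 3.84e-19). The change was -1.23 (SE 0.08, adjusted p = 1.67e-15) in Mct8Dio2 KO striatum, where the library numbered 1 reached 118.4 CPM and the others stayed between 83.2 and 93.9 CPM. Mct8Slco1c1 KO striatum had 79.0 to 94.0 CPM in 6 libraries, against 183.2 to 225.7 CPM in WTa, and a log2 change of -1.35 (SE 0.08, adjusted p = 7.59e-16).

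In cortex, where Pcp4 is scarcer, the groups did not overlap either. It had 36.2, 40.6 and 46.7 CPM (lowest, median, highest) in MMI libraries, against 52.1, 59.9 and 83.3 CPM in WT libraries. That gave a log2 change of -0.62 (SE 0.07, adjusted p = 5.35e-09). Mct8Dio2 KO cortex libraries lay between 42.2 and 48.0 CPM, a log2 change of -0.48 (SE 0.07, adjusted p = 2.07e-06). The 5 Mct8Slco1c1 KO cortex libraries had 51.2, 43.2, 44.7, 43.7 and 41.1 CPM, against 61.1 to 76.2 CPM in WTa, a log2 change of -0.56 (SE 0.08, adjusted p = 7.10e-07).

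The cortex calls for Pcp4 depend on which libraries are fitted. The library labelled cortex Mct8Slco1c1 KO 1 had 226.1 CPM, the level of a control striatum library, although its overall position on the tissue scale was 0.03. The Pcp4 change in Mct8Slco1c1 KO cortex turned to 0.16 (adjusted p = 0.702) with all 70 libraries. The MMI and Mct8Dio2 KO changes in cortex then kept their size, at -0.61 and -0.48, but were not called (adjusted p = 0.0595 and 0.250).

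Camkk2, the kinase that activates CaMKI and CaMKIV, was the third gene that was lower in all models. In hypothyroid striatum it ran from 163.6 through 184.7 to 210.4 CPM, against 327.3, 397.5 and 437.0 CPM in WT. The groups were apart by a wide margin, with a log2 change of -1.07 (SE 0.06, adjusted p = 8.85e-17). Mct8Dio2 KO striatum had 201.4 to 268.0 CPM and a log2 change of -0.70 (SE 0.06, adjusted p = 1.95e-11). In Mct8Slco1c1 KO striatum 6 libraries lay between 236.5 and 265.2 CPM, against 390.2 to 429.6 CPM in WTa, and the log2 change was -0.71 (SE 0.07, adjusted p = 5.97e-11).

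In cortex Camkk2 had 238.6, 255.5 and 267.4 CPM in MMI libraries, against 366.3, 446.2 and 490.6 CPM in WT, a log2 change of -0.78 (SE 0.06, adjusted p = 2.53e-14). Mct8Dio2 KO libraries ran from 258.2 to 357.1 CPM, a log2 change of -0.47 (SE 0.06, adjusted p = 2.88e-08). Mct8Slco1c1 KO libraries held 297.4, 297.0, 311.2, 319.6 and 295.6 CPM, against 414.4 to 487.7 CPM in WTa, a log2 change of -0.55 (SE 0.06, adjusted p = 1.17e-08). No knockout or MMI library reached its control range in either tissue. With all 70 libraries the Mct8Slco1c1 KO changes were -0.67 in striatum (adjusted p = 2.32e-09) and -0.66 in cortex (adjusted p = 9.27e-07).

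**Figure D2:**
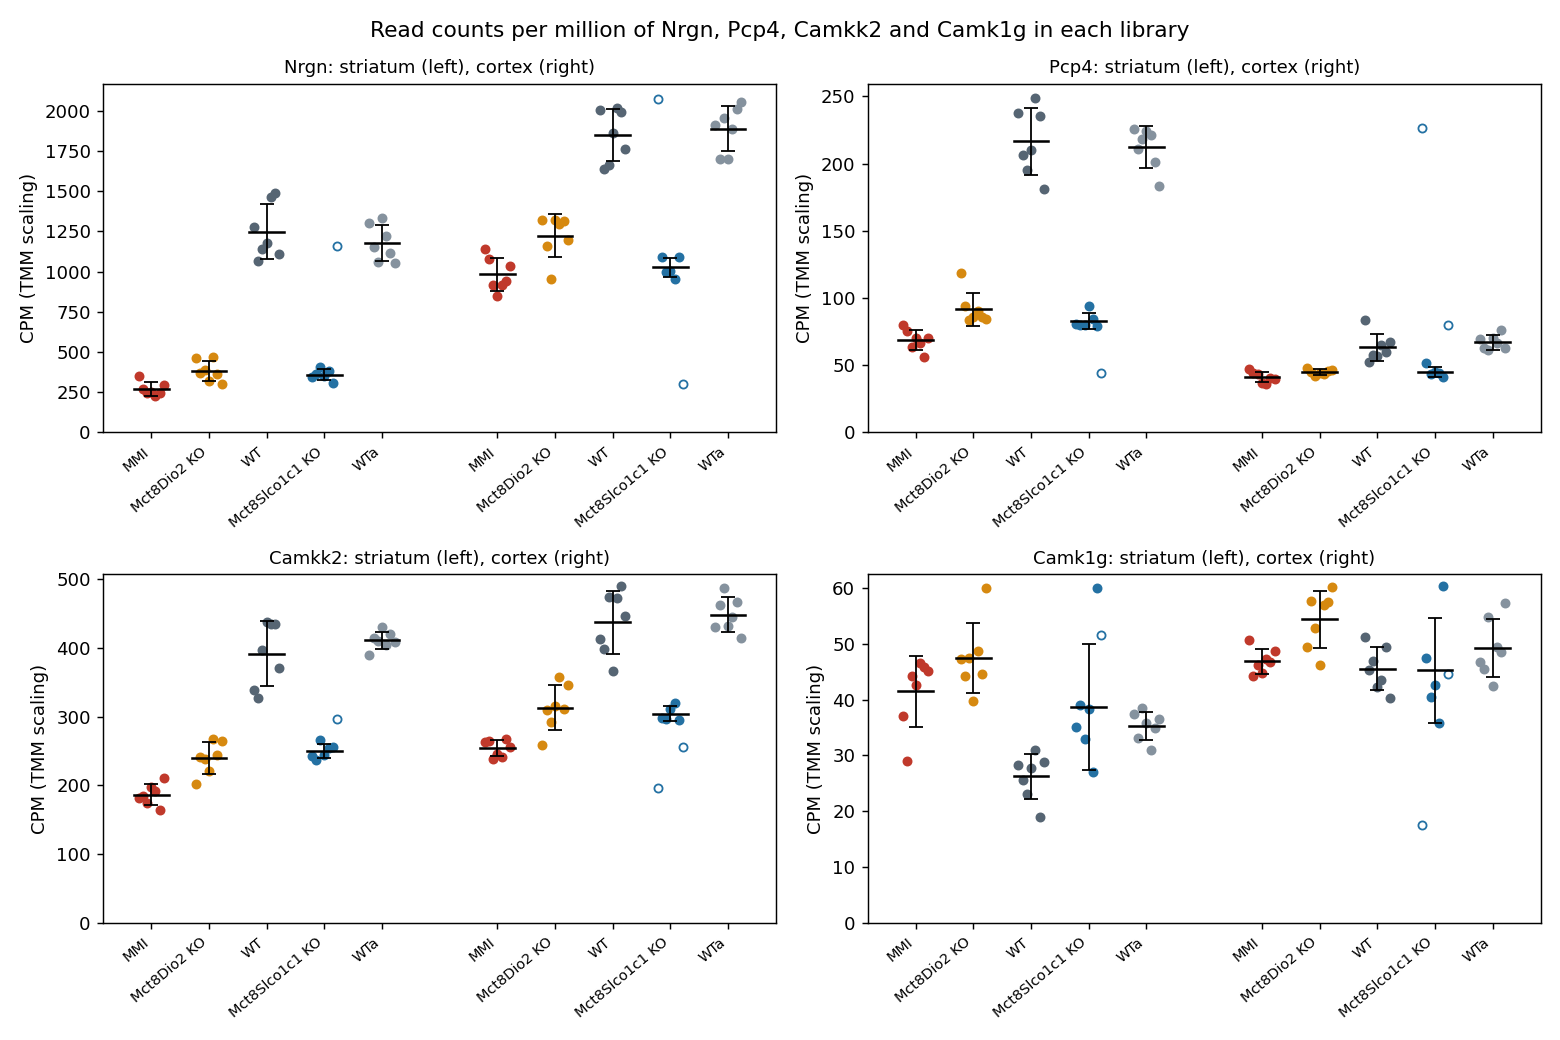
Normalised read counts (CPM, y axis) of Nrgn, Pcp4, Camkk2 and Camk1g in each library, by condition (x axis), with striatum on the left of each panel and cortex on the right. Filled points are libraries used in the fit, bars are mean ± SD over them, and open points are the 3 libraries left out. Nrgn lies between 225.1 and 350.1 CPM in MMI striatum and between 1063 and 1491 CPM in WT striatum.

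Camk1g, a membrane-anchored member of the CaMKI family, was called higher in both models set against WT. In striatum it ran from 28.95 through 44.2 to 46.6 CPM in MMI libraries, against 18.95, 27.7 and 31.0 CPM in WT, with 6 of 7 MMI libraries above the WT range. The log2 change was 0.66 (SE 0.13, adjusted p = 7.33e-05). All 7 Mct8Dio2 KO striatum libraries, at 39.7 to 59.97 CPM, lay above WT, a log2 change of 0.86 (SE 0.13, adjusted p = 3.34e-06). Mct8Slco1c1 KO striatum averaged 38.7 ± 11.3 CPM (n = 6) and WTa striatum 35.3 ± 2.5 CPM (n = 7), a log2 difference of 0.14 (95% interval -0.12 to 0.39, adjusted p = 0.498).

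The 2 sets of wild types differed for this gene. WTa striatum, at 31.1 to 38.4 CPM, lay above every WT striatum library, a log2 difference of 0.42 (SE 0.13, adjusted p = 0.0291). That call was lost when no gene was filtered for low counts (adjusted p = 0.0617). The MMI range overlaps that of WTa. The sources used here do not say whether WTa and WT differ in age, strain or handling, and these cannot be told apart. In cortex Camk1g was called in Mct8Dio2 KO, at 46.2, 56.9 and 60.2 CPM against 40.2, 45.3 and 51.3 CPM in WT, a log2 change of 0.27 (SE 0.08, adjusted p = 0.0103). It was not called in MMI cortex (0.05, 95% interval -0.11 to 0.20, adjusted p = 0.661) or Mct8Slco1c1 KO cortex (-0.11, 95% interval -0.27 to 0.06, adjusted p = 0.426). The Mct8Dio2 KO call was lost with all 70 libraries (adjusted p = 0.246). The Mct8Slco1c1 KO libraries numbered 6 were the highest of their group in both tissues, at 60.1 CPM in striatum and 60.3 CPM in cortex. Without the cortex library numbered 6, the Mct8Slco1c1 KO cortex change in Camk1g was -0.23 and was called (adjusted p = 0.0312).

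Camk4 encodes a mainly nuclear kinase that phosphorylates the transcription factor CREB, and it was moderately lower in the WT-based models. In striatum it had 591.4, 693.6 and 775.7 CPM in MMI libraries, against 726.3, 842.4 and 953.3 CPM in WT. The ranges overlapped, with 6 of 7 MMI libraries below all WT libraries, and the log2 change was -0.32 (SE 0.06, adjusted p = 1.09e-04). It was -0.29 (SE 0.06, adjusted p = 6.61e-04) in Mct8Dio2 KO striatum. In cortex the changes were -0.40 (SE 0.07, adjusted p = 3.51e-05) in MMI and -0.27 (SE 0.07, adjusted p = 6.65e-03) in Mct8Dio2 KO. Both Mct8Dio2 KO calls were lost with all 70 libraries (adjusted p = 0.0639 in striatum and 0.165 in cortex). Mct8Slco1c1 KO differed from WTa by -0.05 in striatum (95% interval -0.18 to 0.08, adjusted p = 0.618) and by -0.10 in cortex (95% interval -0.26 to 0.06, adjusted p = 0.426).

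Of the CaMKII subunits, Camk2d was called higher in 5 of these 6 comparisons, Camk2b was called lower in 4 and Camk2a in 2, and none of the 3 was called in the opposite direction. Camk2d, the delta subunit, averaged 54.5 ± 8.1 CPM in MMI striatum and 41.3 ± 4.2 CPM in WT striatum (n = 7 each), with 6 of 7 MMI libraries above the WT range. Its log2 change there was 0.41 (SE 0.09, adjusted p = 2.14e-04), and in MMI cortex it was 0.26 (SE 0.09, adjusted p = 0.0215). In Mct8Dio2 KO it was 0.23 in striatum (SE 0.09, adjusted p = 0.0487) and 0.24 in cortex (SE 0.09, adjusted p = 0.0489). Without a filter on low counts both Mct8Dio2 KO calls were lost (adjusted p = 0.0708 in striatum and 0.110 in cortex). So was the MMI cortex call (adjusted p = 0.0541). In cortex the 5 Mct8Slco1c1 KO libraries, at 168.3, 194.2, 168.9, 184.8 and 165.5 CPM, all lay above WTa at 126.2 to 154.3 CPM, a log2 change of 0.37 (SE 0.10, adjusted p = 5.27e-03). In Mct8Slco1c1 KO striatum the difference was 0.02 (95% interval -0.16 to 0.20, adjusted p = 0.915). Camk2d was called in none of these 6 comparisons with all 70 libraries, at 0.25 (adjusted p = 0.298) in Mct8Slco1c1 KO cortex and 0.47 (adjusted p = 0.106) in Mct8Slco1c1 KO striatum.

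Camk2b, the beta subunit that anchors CaMKII to actin, ran from 945.3 through 1043 to 1147 CPM in MMI striatum, against 1244, 1380 and 1499 CPM in WT striatum. The groups did not overlap, and the log2 change was -0.36 (SE 0.05, adjusted p = 7.64e-08). It was -0.16 (SE 0.05, adjusted p = 0.0113) in Mct8Dio2 KO striatum and -0.18 (SE 0.04, adjusted p = 1.86e-04) in MMI cortex. In Mct8Slco1c1 KO it was -0.13 in cortex (SE 0.04, adjusted p = 0.0176) and 0.11 in striatum (95% interval 0.02 to 0.21, adjusted p = 0.0929). With all 70 libraries the calls were lost in Mct8Slco1c1 KO cortex (-0.08, adjusted p = 0.503), MMI cortex (adjusted p = 0.0834) and Mct8Dio2 KO striatum (adjusted p = 0.112). The Mct8Slco1c1 KO cortex call was also lost without the knockout library numbered 4 (adjusted p = 0.0628) or 5 (adjusted p = 0.0565). In Mct8Dio2 KO cortex the difference was -0.04 (95% interval -0.12 to 0.03, adjusted p = 0.461).

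Camk2a, the alpha subunit that predominates in forebrain neurons, passed the test only in MMI. It averaged 1486 ± 133 CPM in MMI striatum and 1696 ± 211 CPM in WT striatum, a log2 change of -0.18 (SE 0.07, adjusted p = 0.0303). MMI cortex averaged 3876 ± 192 CPM and WT cortex 4259 ± 297 CPM, a log2 change of -0.13 (SE 0.05, adjusted p = 0.0208). Both pairs of ranges overlapped, and neither call held with all 70 libraries (adjusted p = 0.306 in striatum and 0.623 in cortex). No knockout difference in Camk2a passed the test, with log2 values between -0.09 in Mct8Slco1c1 KO cortex (95% interval -0.19 to 0.01) and 0.11 in Mct8Dio2 KO cortex (95% interval 0.01 to 0.20). For Camk2a in Mct8Slco1c1 KO, all 70 libraries gave -0.38 in cortex (adjusted p = 0.102), and in striatum 0.18 (adjusted p = 0.341) where the fit without the 3 libraries gave -0.06.

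**Figure D3:**
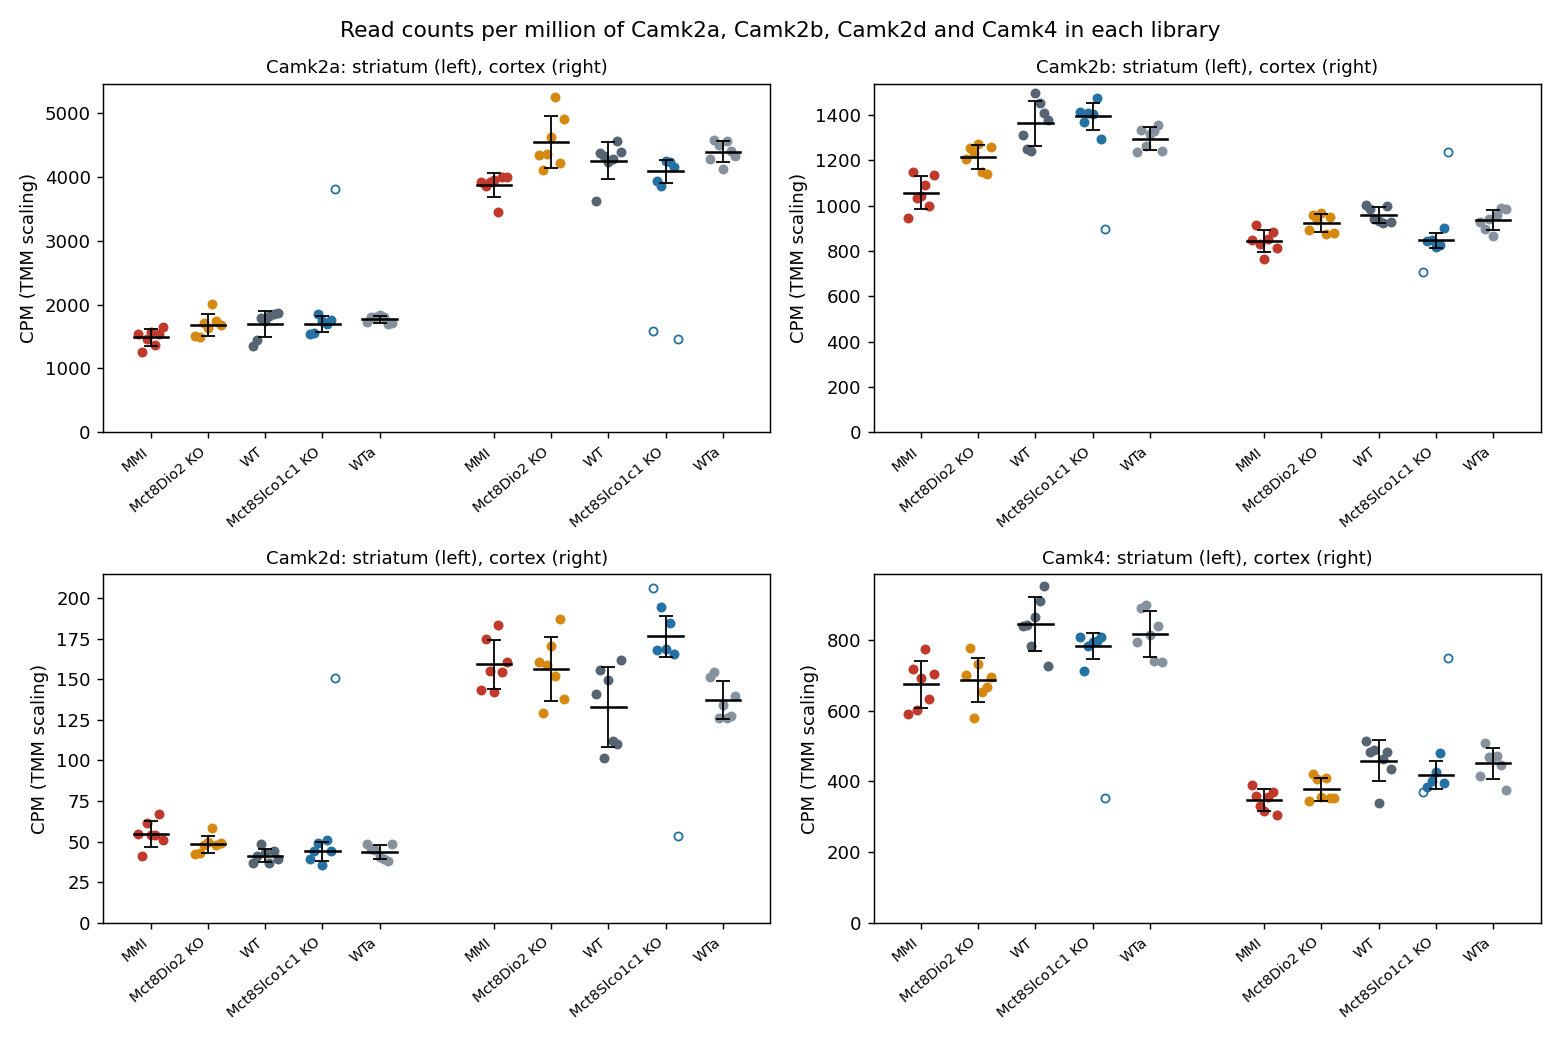
Normalised read counts (CPM, y axis) of Camk2a, Camk2b, Camk2d and Camk4 in each library, by condition (x axis), striatum on the left of each panel and cortex on the right. Filled points are libraries used in the fit, bars are mean ± SD over them, and open points are the 3 libraries left out. Among the filled points, Camk2d stays between 35.7 and 66.9 CPM in striatum and between 101.5 and 194.2 CPM in cortex.

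In untreated wild types every gene differed between the tissues, where 61.3% of 16977 genes did. Pcp4 was 1.78 higher in WT striatum on the log2 scale (SE 0.08, adjusted p = 1.29e-31), Camk4 0.88 higher and Camk2b 0.51 higher. The other differences, WT striatum minus WT cortex, were negative. Camk2d was at -1.69 (SE 0.09, adjusted p = 8.45e-25), Camk2a at -1.33, Camk1g at -0.79, Nrgn at -0.57 and Camkk2 at -0.16. The Camkk2 difference lost its call with all 70 libraries (-0.16, adjusted p = 0.0667). Per kilobase of annotated exon, Nrgn was the most abundant in both tissues, at 858.3 CPM per kilobase in WT striatum and 1272 in WT cortex. Camk4 (259.4), Camk2a (227.1) and Pcp4 (210.9) followed in WT striatum, and Camk2a (570.6), Camk4 (140.6) and Camk2b (105.1) in WT cortex. Camk2d was the scarcest on that scale, at 1.84 in WT striatum and 5.91 in WT cortex. That scale divides by all annotated exons of a gene together, which for Camk2d come to 22493 bases. In CPM alone the order differed. Camk2a was highest, at 1696 CPM in WT striatum and 4259 in WT cortex, and Camk1g lowest, at 26.2 and 45.6 CPM.

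The tissue order of groups differed between genes. For Nrgn the highest mean CPM were those of WTa cortex (1890) and WT cortex (1849). A middle band between 982.0 and 1247 CPM held WT striatum, Mct8Dio2 KO cortex, WTa striatum, Mct8Slco1c1 KO cortex and MMI cortex. The lowest were Mct8Dio2 KO, Mct8Slco1c1 KO and MMI striatum, at 380.1, 358.4 and 267.3 CPM. Of 9 neighbouring pairs in that order 7 overlapped, and the gaps were those between the 3 bands. Pcp4 also had 7 of 9 overlapping neighbours, and its MMI striatum level of 68.7 CPM lay beside the 66.9 CPM of WTa cortex. Camk2a, Camk2d and Camk4 each had a single gap, between the lowest group of one tissue and the highest of the other. Camkk2 had its gap between Mct8Slco1c1 KO cortex and MMI cortex, Camk1g between WTa striatum and WT striatum, and Camk2b had none.

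The changes themselves were compared between tissues by the difference of log2 changes, striatum minus cortex, fitted over both tissues. Same-numbered cortex and striatum libraries of a condition were fitted as independent, although 29 of 33 such pairs correlated over 0.1. In MMI 5 of 8 were called, where 7.72% of 16977 genes were called. The difference was -1.31 for Nrgn (SE 0.12, adjusted p = 6.18e-13), -1.04 for Pcp4 (SE 0.11, adjusted p = 1.81e-11), -0.29 for Camkk2 (adjusted p = 0.0239), -0.19 for Camk2b (adjusted p = 0.0344) and 0.61 for Camk1g (adjusted p = 4.81e-03). In Mct8Dio2 KO 3 of 8 were called, against 4.09% of genes, namely Nrgn at -1.12, Pcp4 at -0.75 and Camk1g at 0.59. In Mct8Slco1c1 KO 3 of 8 were called, against 2.96% of genes, namely Nrgn at -0.84, Pcp4 at -0.79 and Camk2b at 0.24. The calls that held with all 70 libraries were Nrgn and Pcp4 in MMI, Nrgn in Mct8Dio2 KO and Pcp4 in Mct8Slco1c1 KO. In Mct8Slco1c1 KO the differences then were -1.62 for Pcp4 (adjusted p = 6.16e-05), -0.50 for Nrgn (adjusted p = 0.290) and 0.12 for Camk2b (adjusted p = 0.523).

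Mct8Dio2 KO and MMI share the WT controls, and each was also set directly against the other. In striatum 4 of 8 genes were called, all higher in Mct8Dio2 KO than in MMI, where 12.3% of genes were called. They were Nrgn at 0.51 (SE 0.10, adjusted p = 4.53e-04), Pcp4 at 0.41, Camkk2 at 0.36 and Camk2b at 0.20. In cortex 4 of 8 were called, again all higher in Mct8Dio2 KO, where 11.0% of genes were called, namely Nrgn at 0.33, Camkk2 at 0.31, Camk2a at 0.24 and Camk2b at 0.14. With all 70 libraries Pcp4 and Camkk2 remained called in striatum and Camkk2 in cortex.

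The change in Mct8Slco1c1 KO was compared with that in MMI, each against its own controls. In striatum 3 of 8 genes were called, where 6.69% of genes were, with differences of 0.51 for Nrgn (SE 0.14, adjusted p = 0.0219), 0.47 for Camk2b (SE 0.07, adjusted p = 1.99e-05) and 0.35 for Camkk2 (SE 0.09, adjusted p = 0.0106). Positive values mean a smaller fall, or for Camk2b no fall, in Mct8Slco1c1 KO. The Nrgn call was lost with all 70 libraries (0.92, adjusted p = 0.0630) and with no filter on low counts (adjusted p = 0.0502). In cortex edgeR called 0 of 8, where 3.23% of genes were called, with 2 of 8 at an unadjusted p under 0.05 and 0 by DESeq2. WTa against WT gave 0 of 8 calls in cortex by edgeR, where 6.71% of genes were called, with 0 at an unadjusted p under 0.05 and 0 by DESeq2. In striatum it gave the single call of Camk1g, where 11.0% of genes were called.

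Some marker lists of other cells and regions shifted in the models, while other lists had sums that overlapped between MMI and WT. Interneuron markers summed to 1128 to 1363 CPM in MMI striatum and 1246 to 1370 CPM in WT striatum. In cortex those sums were 802.8 to 902.5 CPM and 899.2 to 1025 CPM. Astrocyte markers summed to 3342 to 3898 CPM in MMI striatum and 3533 to 4369 CPM in WT striatum. Their cortex sums were 4719 to 6163 CPM and 4864 to 5977 CPM. Medium spiny neurons are the principal cells of the striatum. Of 10 of their markers 9 were lower in MMI striatum, with a summed level of 5443 to 7094 CPM against 9277 to 12400 CPM in WT. In Mct8Dio2 KO striatum 8 were lower and 1 higher, with a sum of 6470 to 7766 CPM. In Mct8Slco1c1 KO striatum 5 were lower and 2 higher, with a sum of 7832 to 8634 CPM against 8875 to 10100 CPM in WTa. In cortex, 2 of the 10 were lower in MMI, with a median log2 change of -0.67 and a sum of 455.3 to 672.0 CPM against 511.4 to 1143 CPM in WT. Also in cortex, 2 were lower in Mct8Dio2 KO (median -0.47) and none passed the test in Mct8Slco1c1 KO (median -0.09). In bulk tissue, fewer cells of a type and less RNA per cell cannot be told apart.

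All 5 oligodendrocyte markers were lower in cortex in each model, with sums of 4400 to 6713 CPM in MMI and 3694 to 6292 CPM in Mct8Dio2 KO, against 7978 to 10510 CPM in WT. Mct8Slco1c1 KO cortex had 4626 to 5803 CPM, against 7379 to 8718 CPM in WTa. In striatum 3 of 5 were lower in MMI and 5 of 5 in both knockout lines. Of 5 microglia markers 4 were higher in MMI and in Mct8Dio2 KO in both tissues, with sums of 415.5 to 508.6 CPM in MMI striatum against 319.9 to 400.3 CPM in WT striatum.

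Cortical excitatory markers, which bear on tissue carried over in dissection, summed to 75.9 to 485.0 CPM in MMI striatum and 137.2 to 487.4 CPM in WT striatum. They summed to 80.6 to 407.5 CPM in Mct8Slco1c1 KO striatum and 206.5 to 508.7 CPM in WTa striatum. In cortex their sums were 1780 to 2534 CPM in MMI and 1839 to 2496 CPM in WT, and 1 of 6 markers was higher and 1 lower in MMI. Blood and vessel markers moved as well. All 3 erythroid markers were lower in MMI in both tissues, with a median log2 change of -1.58 in striatum and -1.46 in cortex, and in Mct8Slco1c1 KO 1 was lower in striatum and 3 in cortex. Of 4 endothelial markers 2 were higher in MMI striatum and 3 in MMI cortex, and 4 were lower in WTa than in WT striatum and 3 in cortex. Of 4 choroid plexus markers 3 were lower in MMI striatum (median -1.52) and 2 in MMI cortex (median -1.50). Every marker on these lists had counts in each group, summed over the group's fitted libraries. The part of these shifts in the changes of the 8 genes was not tested.

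The wider calmodulin pathway was read from 48 further genes, of which 47 were tested. Whether their calls hold with all 70 libraries was not tested. In MMI striatum 12 were higher and 19 lower, where 19.0% and 19.7% of all genes were, and in MMI cortex 13 were higher and 20 lower, against 19.9% and 20.0%. In Mct8Dio2 KO striatum 10 were higher and 13 lower, against 10.5% and 11.1%, and in Mct8Dio2 KO cortex 12 were higher and 14 lower, against 11.1% and 11.8%. In Mct8Slco1c1 KO striatum 14 were higher and 12 lower, against 12.1% and 13.0%, and in Mct8Slco1c1 KO cortex 13 were higher and 15 lower, against 10.1% and 11.6%. Their median log2 change in MMI was -0.07 in striatum and -0.12 in cortex, beside 0.01 for all genes in each tissue.

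Of the genes that encode calmodulin, Calm2 was lower in each model and tissue. Its log2 changes were -0.60 in MMI striatum (SE 0.06, adjusted p = 1.14e-10), -0.46 in Mct8Dio2 KO striatum and -0.38 in Mct8Slco1c1 KO striatum. In cortex the Calm2 changes were -0.41 in MMI, -0.25 in Mct8Dio2 KO and -0.24 in Mct8Slco1c1 KO. Calm3 changed by -0.21 in MMI striatum and by -0.12 in MMI cortex (adjusted p = 0.0385). Its Mct8Dio2 KO differences did not pass the test, at -0.08 in striatum (95% interval -0.17 to 0.00, adjusted p = 0.192) and -0.02 in cortex (95% interval -0.11 to 0.07, adjusted p = 0.847). In Mct8Slco1c1 KO, Calm3 was called lower, at -0.19 in striatum (adjusted p = 1.48e-03) and -0.14 in cortex (adjusted p = 0.0386).

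Other named genes of the pathway moved in both directions. Camk2n1, a protein inhibitor of CaMKII, had log2 changes of -0.80 in MMI striatum, -0.58 in MMI cortex and -0.56 in Mct8Dio2 KO striatum. In Mct8Slco1c1 KO its changes were -0.40 in striatum and -0.41 in cortex. Pnck, a kinase of the CaMKI family, was higher by 0.91 in MMI striatum, 0.79 in Mct8Dio2 KO striatum and 0.67 in Mct8Slco1c1 KO striatum. In cortex it was higher by 0.82 in MMI and 0.70 in Mct8Dio2 KO.

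The plasma membrane calcium pumps, which calmodulin activates, included large falls. Atp2b1 had log2 changes of -1.18 in MMI striatum (SE 0.08), -0.98 in Mct8Dio2 KO striatum and -0.72 in Mct8Slco1c1 KO striatum. Those of Atp2b2 were -1.25 in MMI cortex (SE 0.07), -0.93 in Mct8Dio2 KO cortex and -0.88 in Mct8Slco1c1 KO cortex. Both genes were also lower on average in the other tissue. In striatum Atp2b2 averaged 910.4 CPM in WT, 525.2 in MMI and 587.3 in Mct8Dio2 KO. It averaged 843.0 CPM in WTa striatum and 667.8 in Mct8Slco1c1 KO striatum. In cortex Atp2b1 averaged 687.3 CPM in WT, 501.2 in MMI and 552.4 in Mct8Dio2 KO. It averaged 694.2 CPM in WTa cortex and 583.8 in Mct8Slco1c1 KO cortex. Of the protein kinase C genes that act on neurogranin, Prkca changed by -0.80 in MMI cortex and -0.55 in Mct8Dio2 KO cortex. Pcp4l1, the paralogue of Pcp4, changed by -1.01 in Mct8Dio2 KO cortex and -0.87 in Mct8Slco1c1 KO cortex. Its mean was also lower in MMI, at 34.5 CPM against 83.1 in WT cortex, and 342.2 CPM against 503.9 in WT striatum.

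A few more genes met the rule for naming. Marcks, a membrane protein that binds calmodulin, was higher by 0.61 in MMI striatum. Strn, which encodes the calmodulin-binding scaffold striatin, changed by -0.60 in Mct8Dio2 KO striatum. Rcan2, a regulator of the calmodulin-dependent phosphatase calcineurin, changed by -0.41 in Mct8Slco1c1 KO striatum. Nos1, the neuronal nitric oxide synthase, was higher by 0.83 in Mct8Slco1c1 KO cortex. These shifts were not confined to 1 model. Nos1 averaged 56.5 CPM in WT cortex, 88.6 in MMI cortex and 77.4 in Mct8Dio2 KO cortex. Strn averaged 476.7 CPM in WT striatum and 320.9 in MMI striatum. Rcan2 averaged 208.6 CPM in WT striatum and 155.9 in MMI striatum, but 207.2 in Mct8Dio2 KO striatum. The Mct8Slco1c1 KO striatum mean of Rcan2, 201.7 CPM, lay below the WTa mean of 269.1 CPM but near the WT mean.

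**Figure D4:**
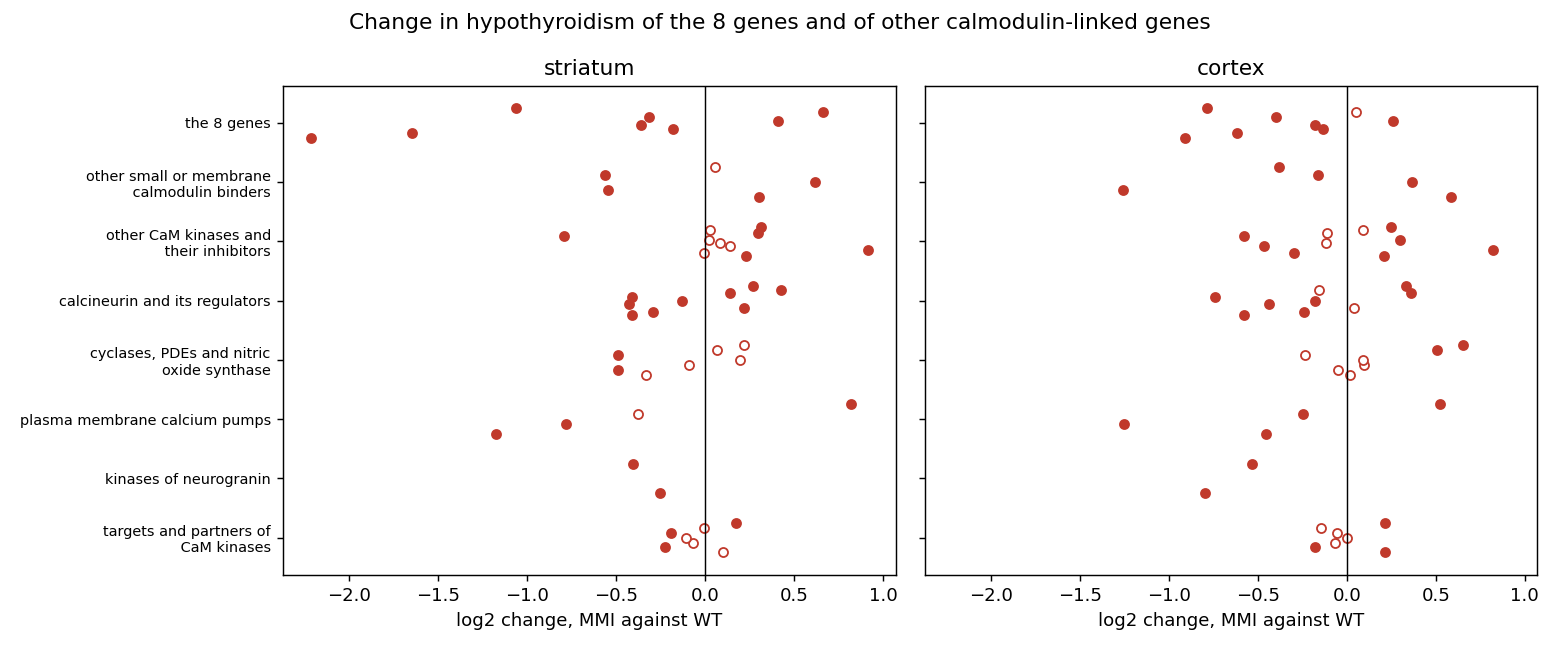
Log2 change in MMI against WT (x axis) of the 8 genes and of genes of the wider pathway, other than those for calmodulin, grouped by role (y axis), in striatum (left) and cortex (right). Each point is a gene, filled where called. Nrgn at -2.21 and Pcp4 at -1.65 in striatum lie to the left of every other gene shown.

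Within a tissue, Nrgn and Pcp4 varied together across libraries. Their log2 CPM correlated at 0.987 over 34 striatum libraries and 0.912 over 33 cortex libraries, and at 0.649 and 0.463 after each group's mean was removed. Nrgn and Camkk2 correlated at 0.945 in striatum and 0.906 in cortex, but at 0.179 and 0.148 within groups. Libraries of a group share condition, and all libraries share the scaling, so these values are descriptions.

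Among 12291 genes ranked by the mean of both tissues' correlations, the 5 most like Nrgn were Cdk5r2 (0.974), Robo3 (0.963), Sema7a (0.953), Cyp46a1 (0.951) and Pcp4 (0.949). For Pcp4 they were Nrgn and Vmp1 (0.948), and for Camkk2 Lynx1 (0.962) and Pdp1 (0.961). The closest genes were looser for Camk2b (Gsg1l, 0.834), Camk2a (Snph, 0.807), Camk2d (Nrp2, 0.781) and Camk1g (Sgsm1, 0.751).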

How the data were processed

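RNA of 70 libraries was sequenced by the authors, per the labels' protocols, from 500 ng of RNA with an unstranded TruSeq kit as single reads of 75 bases. Each deposited file lists unnormalized counts of reads for 38293 genes, and 5 last lines tally what no gene received (37.83% to 46.93% of alignments), which stayed out of every step. The submitters' processing notes name Bowtie, TopHat and HTSeq, besides CASAVA, FastQC and edgeR, and build GRCm38, and their versions were not given in the sources used here. GENCODE M21 names 36345 of the genes. Sequences came from RefSeq (GRCm38.p6).

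From the counts, edgeR 4.0.16 in R 4.3.3 was run with filterByExpr, TMM scaling and its robust quasi-likelihood F test. Libraries of a tissue were fitted together (33 cortex, 34 striatum), or both tissues (67), without the 3 libraries named in the report. Adjustment was Benjamini-Hochberg over all genes tested (16415, 16325 and 16977). SE is the absolute log2 change over the root of F. CPM use TMM scaling over all 70 libraries, and log2 CPM add a prior count of 2. Over 210 pairs within groups, chi-square per degree of freedom was at least 2.31, so no pair agreed within sampling noise. The fit was tested on simulated data. The members, lists, left-out libraries and tests were chosen with earlier results of these data known. Alternatives were all 70 libraries, keeping cortex Mct8Slco1c1 KO 1, DESeq2 1.42.0 and its size factors, no low-count filter, only the groups compared, a replicate block and leaving out each Mct8Slco1c1 KO or WTa replicate in cortex. Named pathway genes are calmodulin genes and, per main comparison, the 4 with the smallest p. Some genes that these rules name are not reported here. Genes most like a member were ranked by the mean of both tissues' correlations of log2 CPM. Counting error is small beside the spread between libraries: the lowest count of a member in the libraries fitted was 164.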

Additional observations from a re-analysis of the deposited data

Results flagged for a closer look

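In 13 of 80 groups of gene, tissue and condition, 1 library stood far from the others of its group, where chance gives about 1 in 20. Of these, 10 concern the libraries left out of the fit. The library labelled striatum Mct8Slco1c1 KO 7, which lies with cortex, had 1162 CPM of Nrgn, 43.67 CPM of Pcp4, 3811 CPM of Camk2a, 897.3 CPM of Camk2b, 150.7 CPM of Camk2d and 351.5 CPM of Camk4. The one labelled cortex Mct8Slco1c1 KO 7, which lies with striatum, had 1238 CPM of Camk2b, 53.56 CPM of Camk2d and 749.3 CPM of Camk4. In the library labelled cortex Mct8Slco1c1 KO 1, Pcp4 reached 226.1 CPM. The remaining 3 were 118.4 CPM of Pcp4 in Mct8Dio2 KO striatum 1 (others 83.16 to 93.88), 3455 CPM of Camk2a in MMI cortex 5 (others 3862 to 4001) and 3627 CPM of Camk2a in WT cortex 1 (others 4239 to 4560).

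In 11 cases the log2 change differed between tissues by edgeR's test of that difference (striatum minus cortex). In MMI the differences were -1.31 for Nrgn, -1.04 for Pcp4, -0.19 for Camk2b, 0.61 for Camk1g and -0.29 for Camkk2. In Mct8Dio2 KO they were -1.12 for Nrgn, -0.75 for Pcp4 and 0.59 for Camk1g. In Mct8Slco1c1 KO they were -0.84 for Nrgn, -0.79 for Pcp4 and 0.24 for Camk2b. For Camk2b in Mct8Slco1c1 KO the changes had opposite signs in the 2 tissues, 0.11 in striatum and -0.13 in cortex.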

How the results depend on the processing

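The choice of libraries mattered most. With all 70 libraries as labelled, genes called (members in brackets where that count moved) were 3350 (3) in MMI, 1221 (2) in Mct8Dio2 KO, 2080 (2) in Mct8Slco1c1 KO, 161 in WTa against WT, 516 (1) in Mct8Dio2 KO against MMI and 166 in the Mct8Slco1c1 KO change minus the MMI change, all in cortex. In striatum they were 1046 in WTa against WT, 1212 (2) in Mct8Dio2 KO against MMI and 561 in the Mct8Slco1c1 KO change minus the MMI change, and 4 members were called in Mct8Dio2 KO. The tissue differences gave 418 (2) in MMI, 188 (1) in Mct8Dio2 KO and 569 (1) in Mct8Slco1c1 KO. Keeping only cortex Mct8Slco1c1 KO 1 gave, in cortex, 4147 in MMI, 1914 (3) in Mct8Dio2 KO, 293 in WTa against WT, 753 (1) in Mct8Dio2 KO against MMI and 260 in the Mct8Slco1c1 KO change minus the MMI change, and tissue differences of 839 (3) in MMI and 444 (1) in Mct8Dio2 KO. The Pcp4 change in Mct8Slco1c1 KO cortex reversed to 0.16 with all 70 libraries and to 0.13 when that library was kept. Fits of only the groups compared called 1256 genes in Mct8Dio2 KO against MMI in striatum and 3 members (1322 genes) for the MMI tissue difference. They called 389 and 773 genes for the tissue differences of Mct8Dio2 KO and Mct8Slco1c1 KO. Without a low-count filter 0 members (1382 genes) were called in WTa against WT striatum. DESeq2 called 5 members (1288 genes) in the striatum Mct8Slco1c1 KO change minus the MMI change. The cause of these shifts was not tested. Leaving out 1 cortex Mct8Slco1c1 KO or WTa library called 4 to 6 members and 2936 to 3455 genes.

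Replicate numbers are shared by groups, but the labels do not say that they pair samples. Same-numbered cortex and striatum libraries of a condition correlated over 0.1 in 29 of 33 pairs (lowest -0.03). Between a model and its controls in cortex, 1 of 5 MMI, 3 of 5 Mct8Dio2 KO and 0 of 5 Mct8Slco1c1 KO pairs did. In striatum these were 2 of 5, 2 of 5 and 0 of 6. Within a tissue the block joins conditions that share a number, and for tissue differences it joins the tissues of a condition. With the number as a replicate block, 6 members were called in MMI cortex (5654 genes) and 7 in MMI striatum (5627 genes). In Mct8Dio2 KO 5 were called in cortex (3088 genes), 6 in striatum (3013 genes) and 4 for the tissue difference (1039 genes). Camkk2 gained a call for the Mct8Dio2 KO tissue difference (adjusted p = 0.0265). Pcp4 gained one in striatum for the Mct8Slco1c1 KO change minus the MMI change (adjusted p = 0.0459). The lost calls were those of Camk2a in MMI (-0.10 in striatum, adjusted p = 0.236, and -0.10 in cortex, adjusted p = 0.124) and of Camk2d in Mct8Dio2 KO (adjusted p = 0.0950 in striatum and 0.0716 in cortex). DESeq2's size factors left 126 of 128 member results on the same side of the threshold, DESeq2 126, no filter 121, only the groups compared 116 and the replicate block 122. Nrgn and Camkk2 kept their direction under each alternative tried in the 6 comparisons with controls. Depth was no limit on the levels, since each member had at least 164 counts in the libraries fitted.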
